A study of Mus musculus with 80 samples.

Results

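The wild-type livers taken 4 h after a single dose of carbon tetrachloride (CCl4) are described here across all genes. They were picked by their titles and make up 10 of the 80 livers of the series, 5 given CCl4 and 5 given vehicle. The CCl4 group held 8-week-old female C57BL/6J wild-type mice that received 0.3 ml of CCl4 per kg of body weight into the peritoneum, as a 3% v/v dilution in olive oil, and the vehicle group held mice of the same strain, sex and age that received olive oil alone. The whole series crosses wild-type and Adamts12-/- mice, CCl4 and vehicle, and 4 times after injection (4 h, 12 h, 24 h and 7 days) with 5 livers in each of 16 groups. RNA was read from whole liver by poly(A)-selected, strand-marking sequencing. The 12 h livers of the same genotype and the 4 h livers of Adamts12-/- mice, which lack the secreted metalloproteinase ADAMTS12, serve below as the nearest other groups.

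CCl4 is a standard liver poison. Hepatocytes around the central vein hold the cytochrome P450 enzyme CYP2E1, which turns CCl4 into the trichloromethyl radical, and that radical attacks lipids and proteins of the endoplasmic reticulum membrane. Damaged cells are known to answer with a few conserved programmes. Heat shock factor 1 raises cytosolic chaperones, the unfolded protein response raises chaperones of the endoplasmic reticulum through the sensors ATF6, IRE1 (Ern1) and PERK (Eif2ak3), the integrated stress response acts through phosphorylated eIF2alpha and ATF4, and NRF2 raises antioxidant enzymes. A time of 4 h is early in this kind of injury, which is known to go on to loss of tissue around the central vein and then to cell division.

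The promoters of genes in the unfolded protein and the integrated stress response lists carry known sequence elements, and 6 stretches are shown because they hold these elements and their genes are given with values below. They come from RefSeq (build GRCm38.p6), are written 5′ to 3′ on the gene's own strand, and have the motif in capitals. Each lies wholly before a RefSeq start of its gene, and a gene can have further starts. The stretches of Atf3 and Hspa5 lie inside the wider span that the GENCODE annotation gives these genes. The endoplasmic reticulum stress element was searched, as CCAAT and CCACG with any 9 bases between them, on both strands from 250 bases before to 50 bases after each start.
Hspa5, chr2:34771975-34772089, plus strand: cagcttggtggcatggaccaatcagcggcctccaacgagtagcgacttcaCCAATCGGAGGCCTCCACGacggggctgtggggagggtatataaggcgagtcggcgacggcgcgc
Creld2, chr15:88819470-88819588, plus strand, motif on the opposite strand: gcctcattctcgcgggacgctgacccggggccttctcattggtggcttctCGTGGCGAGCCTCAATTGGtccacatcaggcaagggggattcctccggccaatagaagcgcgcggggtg
Syvn1, chr19:6046482-6046575, plus strand: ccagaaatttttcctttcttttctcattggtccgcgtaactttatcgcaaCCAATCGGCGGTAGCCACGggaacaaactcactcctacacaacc
This element was present in 9 of the 22 unfolded protein response genes with a promoter in the RefSeq table (26 were tested). Among them were Hsp90b1, Dnajc3, Pdia6, Calr, Canx and Derl3. The element was present in 0.119% of all 32851 promoters and in 0.193% of the 10354 tested genes with a promoter.
The C/EBP-ATF response element, to which ATF4 binds, was searched as TGATGNAA in the same windows and on both strands.
Atf3, chr1:191183386-191183493, minus strand, motif on the opposite strand: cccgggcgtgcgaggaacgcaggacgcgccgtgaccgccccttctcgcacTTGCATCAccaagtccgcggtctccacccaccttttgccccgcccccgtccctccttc
Chac1, chr2:119350999-119351106, plus strand, motif on the opposite strand: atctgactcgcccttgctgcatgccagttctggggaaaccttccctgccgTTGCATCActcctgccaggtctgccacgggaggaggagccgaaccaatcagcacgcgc
Asns, chr6:7693210-7693282, minus strand: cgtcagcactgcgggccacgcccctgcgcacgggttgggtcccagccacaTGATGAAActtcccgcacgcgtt
It was found in 8 of 20 integrated stress response genes with a promoter in the table (22 tested) and in 5 of 13 tRNA synthetase genes (20 tested). The shares were 3.97% of all promoters and 2.84% of tested genes with a promoter. The core heat shock element was searched as GAA, TTC and GAA with any 2 bases between neighbours. It was found in 4 of 18 heat shock chaperone genes (23 tested), namely Hsph1, Chordc1, Hspd1 and Hspe1. The shares were 0.603% of all promoters and 0.57% of tested genes with a promoter. The antioxidant response element TGACNNNGC is short and common, and was found in 11 of 29 NRF2 target genes (33 tested). The shares were 12.4% of all promoters and 16.7% of tested genes with a promoter. The palindromic E-box CACGTG was found in 5 of 18 clock genes (22 tested), against 7.15% of all promoters and 11.6% of tested genes with a promoter. These are matches of letters, and binding was not measured.

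The 10 libraries held 23.6 to 51.4 M reads each, within the 18.6 to 64.5 M of the whole series, and values below are the submitters' normalized counts, which are not corrected for gene length and so are compared between livers, not between genes. Among the 10 livers Adamts12 had 15.9, 26.9, 27.99, 45.2 and 9.63 normalized counts in CCl4 livers, against 7.53, 7.08, 16.2, 22.5 and 24.0 in vehicle livers, and it did not pass the test (0.65 ± 0.45; adjusted p = 0.26). Albumin (Alb), the main secreted product of hepatocytes and a defining marker of liver, had 4307845, 2815225, 2844150, 3620388 and 2454563 normalized counts in CCl4 livers, against 3478289, 3783079, 3694842, 3795467 and 3823128 in vehicle livers, and did not pass (adjusted p = 0.63). The 12 hepatocyte markers summed to 3612284 to 5443010 normalized counts in CCl4 livers and 5097437 to 5456595 in vehicle livers, and 7 of them fell and 1 rose (median -0.53), where over all 13573 genes tested 23.7% fell and 26.3% rose at an adjusted p under 0.05. Vehicle livers 1 and 5 lay furthest from the other vehicle livers, in opposite directions. Over the 1335 genes that were called and at least 2-fold higher after CCl4, the median log2 distance from the other vehicle livers was 0.13 for liver 1 and -0.13 for liver 5. Over the 824 that were called and at least 2-fold lower it was -0.17 for liver 1 and 0.19 for liver 5. Liver 1 had the highest vehicle value in 37.5% of those rises and the lowest in 38.8% of those falls, where an even share would be 1 in 5. Cdkn1a, the p21 cell cycle inhibitor, had 5866, 8084, 7780, 8319 and 5124 normalized counts in CCl4 livers, against 516, 73.1, 41.4, 78.7 and 73.2 in vehicle livers. The mouse number of vehicle liver 1 follows directly on those of the 5 CCl4 mice, while the other vehicle mice have later numbers, and nothing in the labels says what the numbers mean. Without that liver 6736 genes were called, against 6787 with it. With the 5 CCl4 livers set against that liver alone, which is then assumed to vary as they do, 2720 genes were called.

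Of 13573 genes tested, 3565 were higher in CCl4 livers (26.3%) and 3222 were lower (23.7%) at an adjusted p under 0.05, together 50%. At least 2-fold changes were less even, with 1335 genes higher (9.84%) and 824 lower (6.07%). The groups did not overlap, every CCl4 liver above every vehicle liver, in 2750 genes (20.3%), and lay the other way in 2215 (16.3%). The median log2 difference over all genes tested was -0.0041. A log2 difference of 1 is a 2-fold change, and the median standard error of a gene's log2 difference was 0.16.

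The smallest p-value of all belonged to Chka, choline kinase alpha, the first enzyme of phosphatidylcholine synthesis. It had 18397, 18105, 20170, 15670 and 17180 normalized counts in CCl4 livers, against 712, 415, 376, 409.7 and 489 in vehicle livers, a log2 difference of 5.25 ± 0.15 (SE; adjusted p = 1.0e-09). The groups were far apart, with no overlap. Ifrd1, a transcriptional co-regulator, had 33015, 37692, 23342, 33344 and 15331 normalized counts in CCl4 livers, against 504, 458, 555, 728 and 482 in vehicle livers, and CCl4 liver 5 was the lowest of its group. Rcan1, an inhibitor of calcineurin, had 24766, 29270, 21496, 22913 and 18789 normalized counts in CCl4 livers, against 766, 1116, 1247, 951 and 687 in vehicle livers. Ackr2, a scavenging receptor that removes inflammatory chemokines, had 1761, 2186, 2029, 2435 and 1240 normalized counts in CCl4 livers, against 66.5, 53.5, 55.0, 61.1 and 85.2 in vehicle livers. Their log2 differences were 5.66 ± 0.22, 4.64 ± 0.17 and 4.87 ± 0.19, with no overlap of the groups in any of the 3. Zbtb21, a zinc finger protein, rose less (2.73 ± 0.10) but evenly, with 1582 to 1929 normalized counts over the CCl4 livers and 231 to 292 over the vehicle livers.

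Among the falls with the smallest p was that of Aqp11, an intracellular water channel, with 320.1, 276, 299, 264 and 292 normalized counts in CCl4 livers, against 1287, 1433, 1412, 1387 and 2033 in vehicle livers (-2.36 ± 0.13; adjusted p = 3.9e-08). Ido2, an enzyme of tryptophan breakdown, had 834, 679, 722, 826 and 828 normalized counts in CCl4 livers, against 2850, 3300, 2875, 2617 and 3542 in vehicle livers (-1.96 ± 0.11). Pdk2, a kinase that inhibits pyruvate dehydrogenase, fell by 1.99 on the log2 scale and Gpr146, a G-protein-coupled receptor, by 1.86. Csk, the kinase that holds Src-family kinases inactive, fell by 1.22 with little spread, at 769 to 915 normalized counts in CCl4 livers and 1885 to 2053 in vehicle livers. Among the largest falls were Igfbp5, an IGF-binding protein, with 33.2, 64.0, 65.3, 21.1 and 71.5 normalized counts in CCl4 livers, against 447, 300.3, 303, 307 and 612 in vehicle livers (-3.00 ± 0.33), and Acot3, a peroxisomal acyl-CoA thioesterase, with 357, 316, 122, 206 and 168 normalized counts in CCl4 livers, against 798, 2307, 1558, 1165 and 4080 in vehicle livers (-2.95 ± 0.40). Vehicle values of Acot3 were widely spread, yet the lowest of them lay above the highest CCl4 value.

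Heat shock genes rose almost as a block. Of 23 members tested, which include the mitochondrial chaperones Hspd1 and Hspe1 and the factors Hsf1 and Hsf2, 21 rose, 0 fell and the median log2 difference was 1.65, against -0.0041 over all genes. Dnajb1, the HSP40 partner of HSP70, had 20695, 23042, 13694, 15718 and 13496 normalized counts in CCl4 livers, against 710.3, 806, 748, 472 and 542 in vehicle livers (4.72 ± 0.18; adjusted p = 4.0e-09). Hsp90aa1, the stress-inducible HSP90, had 71076, 55583, 28804, 56843 and 25553 normalized counts in CCl4 livers, against 3244, 3820, 3828, 3977 and 2475 in vehicle livers (3.69 ± 0.26). CCl4 livers 1, 2 and 4 lay above livers 3 and 5 for Hsp90aa1, and the same livers were the higher ones for Hsph1, an HSP110 exchange factor, at 29924, 38066, 17033, 33890 and 17077 normalized counts in CCl4 livers and 1503, 2214, 1788, 1256 and 976 in vehicle livers. Bag3, the co-chaperone that hands clients of HSP70 to autophagy, averaged 13206 ± 5614 normalized counts in CCl4 livers and 1542 ± 219.7 in vehicle livers (SD, n = 5 each), with no overlap of the groups and a log2 difference of 3.01 ± 0.24. Hspa4l, another HSP110 relative, rose by 3.50 ± 0.18 and Hsf1 itself by 0.82 ± 0.10. The mitochondrial pair Hspd1 and Hspe1 rose by 1.33 ± 0.16 and 1.65 ± 0.21. Hspa1a and Hspa1b, the inducible HSP70 genes, are near-identical, so reads may be split between them and each value is uncertain. Hspa1b had 21633, 40386, 15554, 28895 and 13967 normalized counts in CCl4 livers, against 219.6, 236, 196, 85.2 and 79.2 in vehicle livers (7.23 ± 0.36). The HSP90 immunophilin Fkbp4 (-0.10 ± 0.19; adjusted p = 0.69) and the small heat shock protein Cryab (-0.32 ± 0.35; adjusted p = 0.48) did not pass the test.

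**Figure D1:**
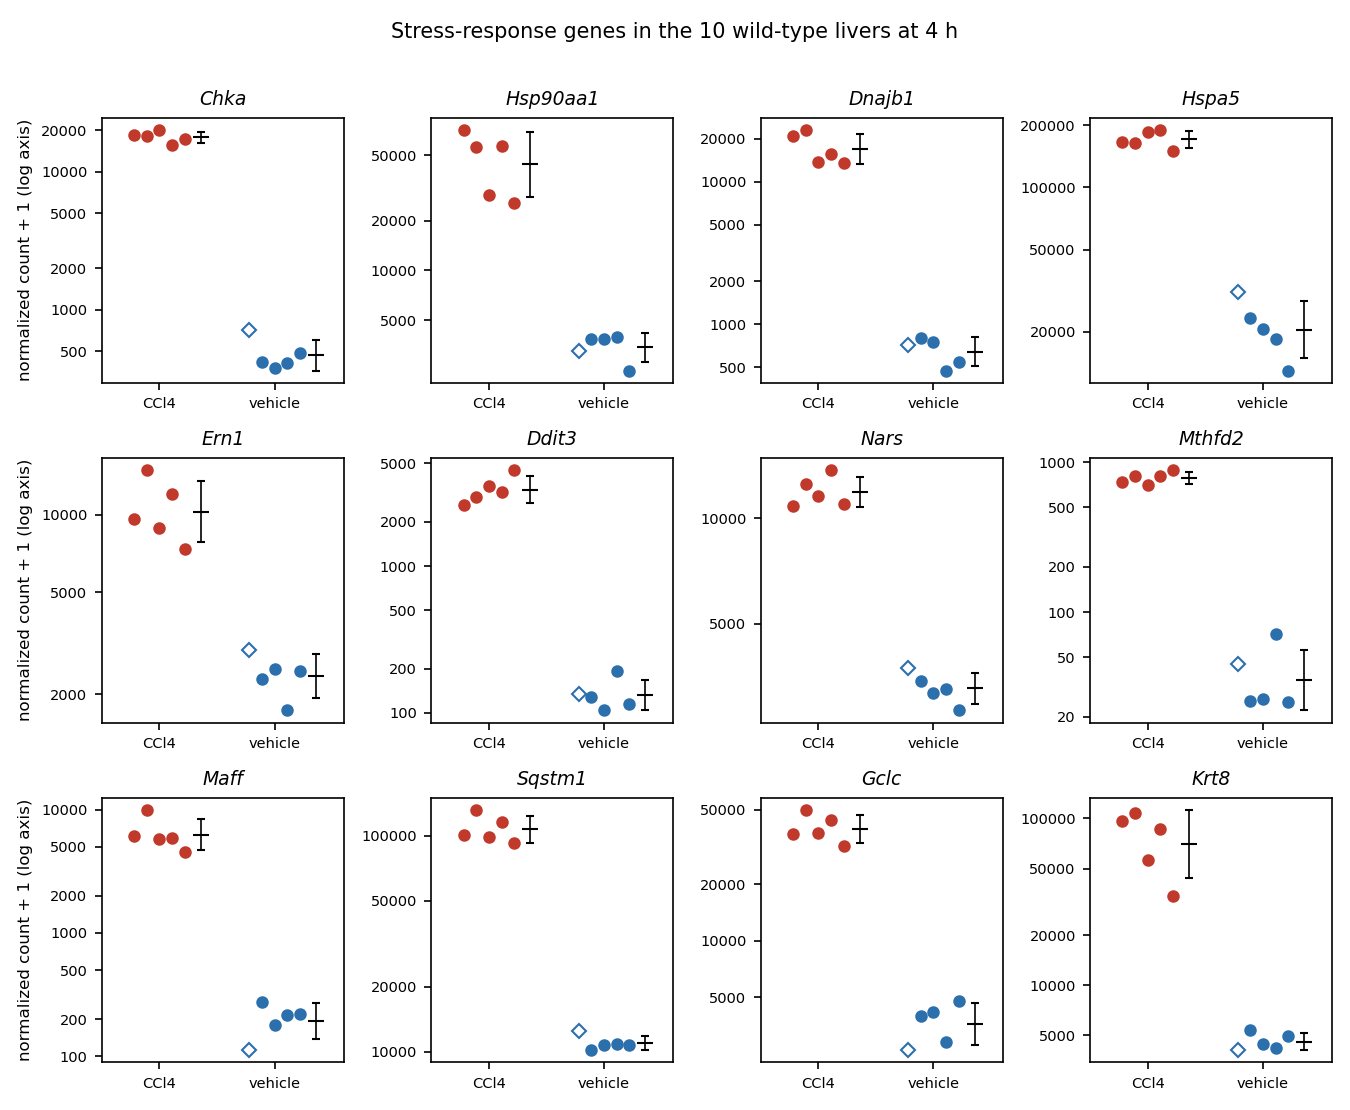
Normalized count + 1 (log axis) of 12 stress-response genes in each liver, CCl4 livers in red and vehicle livers in blue, with vehicle liver 1 as an open diamond and the bar giving the mean ± SD of the log2 values (n = 5 each). In all 12 panels the 5 CCl4 livers lie above the 5 vehicle livers, with the widest gaps for Chka, Maff and Dnajb1.

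The protein disposal genes rose with the chaperones. Of 32 proteasome subunits tested, 30 rose and 0 fell, with a median of 0.70. Psmd14, the deubiquitinase of the proteasome lid, averaged 2852 ± 175 normalized counts in CCl4 livers and 1116 ± 185 in vehicle livers (SD, n = 5 each), with no overlap of the groups and a log2 difference of 1.37 ± 0.11, and the lid subunit Psmd11 had 6506, 6734, 6704, 6868 and 6329 normalized counts in CCl4 livers, against 2795, 2859, 2720, 2947 and 2083 in vehicle livers (1.32 ± 0.10). Of the 30 rises 9 reached 2-fold. Under quantile normalization 23 subunits rose and 1 fell. Sqstm1 (p62), the receptor that brings ubiquitinated cargo to autophagosomes, had 100951, 132216, 98383, 115991 and 92479 normalized counts in CCl4 livers, against 12502, 10147, 10714, 10871 and 10754 in vehicle livers (3.29 ± 0.12; adjusted p = 4.0e-09). The autophagy and lysosome list, which holds Sqstm1, was mixed, with 6 of 25 members higher, 8 lower and a median of -0.01. Over all genes 26.3% were higher and 23.7% lower.

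Genes of the endoplasmic reticulum unfolded protein response were higher in 24 of 26 cases and lower in 1, with a median of 1.09. Against vehicle liver 1 alone 9 rose and 0 fell, with a median of 0.56. Hspa5, the chaperone BiP, had 166744, 163550, 186537, 190339 and 150940 normalized counts in CCl4 livers, against 31058, 23321, 20658, 18386 and 12929 in vehicle livers (3.06 ± 0.20). The messages of the 3 sensors rose as well. Eif2ak3 (PERK) had 4710, 5938, 4156, 5499 and 3913 normalized counts in CCl4 livers, against 796, 686, 469, 548 and 468 in vehicle livers (3.04 ± 0.17). Ern1 (IRE1) had 9592, 14961, 8909, 12045 and 7382 normalized counts in CCl4 livers, against 2966, 2287, 2501, 1730 and 2455 in vehicle livers (2.12 ± 0.19), and Atf6 had 12404, 15327, 13814, 16060 and 11531 normalized counts in CCl4 livers, against 3514, 3357, 3550, 3339 and 3493 in vehicle livers (1.99 ± 0.10). The member that fell was Xbp1, the transcription factor whose message IRE1 splices, with 13933, 10353, 13899, 13140 and 14058 normalized counts in CCl4 livers, against 17170, 18680, 22174, 19583 and 18585 in vehicle livers (-0.56 ± 0.11; adjusted p = 0.0012). Gene counts do not separate spliced from unspliced Xbp1. Dnajb9, a luminal HSP40, rose by 2.33 ± 0.18 and Selenos, a selenoprotein of retrotranslocation, by 1.19 ± 0.11.

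Several genes of the endoplasmic reticulum did not order the CCl4 livers as Hsp90aa1 and Hsph1 did. Hyou1, the luminal HSP110, had 16274, 14874, 25803, 25090 and 23180 normalized counts in CCl4 livers, against 9285, 4840, 4867, 3520 and 2500 in vehicle livers (2.18 ± 0.29). Creld2, a disulfide isomerase, had 4226, 4588, 8230, 7689 and 7370 normalized counts in CCl4 livers, against 2451, 1043, 1092, 805 and 576 in vehicle livers (2.55 ± 0.33). Syvn1, the ubiquitin ligase of endoplasmic reticulum-associated degradation, had 8289, 8088, 12093, 15422 and 13304 normalized counts in CCl4 livers, against 5536, 2702, 2554, 2471 and 1817 in vehicle livers (1.98 ± 0.27). For all 3, livers 3, 4 and 5 were the high CCl4 livers and vehicle liver 1 was the high vehicle liver. Derl3, an inducible derlin, made the order plain, with 108, 71.7, 494, 446 and 561.4 normalized counts in CCl4 livers, against 232, 18.1, 21.6, 14.5 and 49.2 in vehicle livers, so that vehicle liver 1 lay above CCl4 livers 1 and 2. Its log2 difference was 2.72 ± 0.76 (adjusted p = 0.0095). Creld2, Syvn1 and Derl3 carry the element shown above, as does Hspa5, for which CCl4 liver 5 was the lowest of its group. Whether the element goes with this order of livers was not tested.

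The integrated stress response list had the highest median of all 49 lists, 3.00, with 19 of 22 members higher and 1 lower. Ddit3 (CHOP), a pro-apoptotic transcription factor, had 2598, 2966, 3535, 3213 and 4527 normalized counts in CCl4 livers, against 134, 127, 103, 191 and 114 in vehicle livers (4.65 ± 0.18; adjusted p = 4.0e-09). Ppp1r15a (GADD34), the phosphatase subunit that reverses eIF2alpha phosphorylation, had 5399, 8544, 6136, 7600 and 4743 normalized counts in CCl4 livers, against 363, 388, 383, 570.4 and 348 in vehicle livers (3.97 ± 0.17). Atf3, a stress-induced transcription factor, had 11367, 11108, 18037, 7600 and 22703 normalized counts in CCl4 livers, against 97.9, 85.7, 69.4, 161 and 144 in vehicle livers (6.94 ± 0.29). Atf4 itself rose by 1.40 ± 0.11, with 8413 to 9263 normalized counts over the CCl4 livers and 2877 to 4194 over the vehicle livers. Sesn2, a leucine sensor that restrains mTORC1, rose by 3.48 ± 0.19 and the amino acid carrier Slc7a5 by 2.96 ± 0.18. Asns, asparagine synthetase, had 539, 832, 699, 499 and 652 normalized counts in CCl4 livers, against 99.1, 4.72, 8.11, 296 and 52.8 in vehicle livers (4.05 ± 0.86). Its vehicle livers were widely spread, with vehicle liver 4 the highest, as it also was for Chac1, a glutathione-degrading enzyme (2394, 2369, 2454, 1949 and 2701 in CCl4 livers, 423, 372, 204, 1001 and 293 in vehicle livers; 2.58 ± 0.32). Eif2ak1, the heme-sensing eIF2alpha kinase, was the member that fell (-0.37 ± 0.09; adjusted p = 0.0041).

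Amino acid and one-carbon genes rose in part. Among cytosolic tRNA synthetases 19 of 20 rose, 0 fell and the median was 1.13. Nars, for asparagine, had 10837, 12557, 11546, 13756 and 11015 normalized counts in CCl4 livers, against 3736, 3441, 3180, 3270 and 2831 in vehicle livers (1.86 ± 0.10), and Sars, for serine, rose by 1.65 ± 0.10. Dars, for aspartate, was the member that did not pass (0.06 ± 0.12; adjusted p = 0.72). Serine and one-carbon genes were split, with 6 of 13 higher and 4 lower. Mthfd2, the mitochondrial folate enzyme of ATF4 programmes, had 736, 813, 707, 806 and 890.3 normalized counts in CCl4 livers, against 43.9, 24.4, 25.2, 70.7 and 24.0 in vehicle livers (4.49 ± 0.27). The cytosolic enzyme Mthfd1 fell instead, with 3903, 3637, 3482, 3399 and 4396 normalized counts in CCl4 livers, against 6845, 9629, 8504, 8988 and 9631 in vehicle livers (-1.21 ± 0.11). Ribosome biogenesis genes rose in 28 of 30 cases and 1 fell (median 0.83), led by Nop58, a box C/D small nucleolar RNP protein, with 7525, 5211, 5207, 7164 and 4047 normalized counts in CCl4 livers, against 927, 1030, 887, 1677 and 876 in vehicle livers (2.44 ± 0.20).

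Immediate early genes, the transcription factors induced first after a stimulus, were higher in 25 of 27 cases and lower in 0, with a median of 2.34. Maff, a small MAF partner of NRF2, had 6165, 10002, 5740, 5882 and 4567 normalized counts in CCl4 livers, against 110.4, 274, 178, 215 and 218 in vehicle livers (5.02 ± 0.24). Fos had 1023, 1421, 906, 1210 and 672 normalized counts in CCl4 livers, against 57.7, 74.7, 63.1, 57.8 and 93.7 in vehicle livers (3.87 ± 0.20), and Ier5 had 2145, 2991, 2174, 2373 and 1866 normalized counts in CCl4 livers, against 265, 250, 208, 225 and 263 in vehicle livers (3.24 ± 0.13; adjusted p = 4.3e-09). Klf6, a zinc finger factor, rose by 4.31 ± 0.24, Csrnp1 by 3.45 ± 0.19 and the matricellular gene Ccn1 by 5.21 ± 0.33, whereas its relative Ccn2 did not pass (0.05 ± 0.45; adjusted p = 0.94). Klf4, a zinc finger factor, had 82.4, 180.4, 134, 118 and 107 normalized counts in CCl4 livers, against 398, 29.1, 39.6, 75.5 and 46.8 in vehicle livers. Vehicle liver 1 lay above every other liver, and Klf4 did not pass with it (0.77 ± 0.56; adjusted p = 0.27) but did without it (1.40; adjusted p = 0.0015). Myc had 1494, 2574, 1365, 1751 and 1489 normalized counts in CCl4 livers, against 281, 89.6, 1156, 196 and 191 in vehicle livers (2.72 ± 0.50), and its highest vehicle liver was number 3. Of 16 MAP kinase feedback inhibitors 11 rose and 0 fell, with a median of 1.46. Dusp8, a phosphatase of JNK and p38, had 2185, 3374, 2706, 2664 and 2170 normalized counts in CCl4 livers, against 48.9, 35.4, 43.2, 145 and 34.8 in vehicle livers (5.61 ± 0.32), and Dusp10 rose by 3.54 ± 0.19, while Spry1, a brake on receptor tyrosine kinases, did not pass (0.20 ± 0.17; adjusted p = 0.37).

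Of 26 cytoskeletal genes and targets of SRF or YAP, 18 rose and 0 fell (median 1.10). Krt8, the type II keratin of hepatocytes, had 95882, 108256, 56029, 86804 and 34420 normalized counts in CCl4 livers, against 4067, 5402, 4427, 4216 and 4946 in vehicle livers (3.94 ± 0.26), and its partner Krt18 rose by 2.90 ± 0.25. Tubb2a, a beta tubulin, had 10861, 12593, 11408, 13622 and 11085 normalized counts in CCl4 livers, against 1092, 674, 511, 337 and 339.8 in vehicle livers (4.47 ± 0.27). Tubb6 rose by 4.08 ± 0.32 and gamma actin (Actg1) by 2.49 ± 0.20. For Krt8 the CCl4 livers ran in the order 2, 1, 4, 3, 5, the order they had for Krt18 apart from livers 1 and 4. Tnfrsf12a (Fn14), the receptor of TWEAK, had 7115, 8615, 5329, 7325 and 3187 normalized counts in CCl4 livers, against 274, 173, 208, 138 and 124 in vehicle livers (5.08 ± 0.27).

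p53 targets were higher in 15 of 27 cases and lower in 3, with a median of 0.59. Mdm2, the ubiquitin ligase that degrades p53, had 3940, 5466, 4262, 4482 and 3622 normalized counts in CCl4 livers, against 728, 791, 718, 733 and 629 in vehicle livers (2.58 ± 0.11; adjusted p = 1.1e-08). Trp53inp1, a p53-induced nuclear protein, had 17537, 17908, 17099, 11221 and 17837 normalized counts in CCl4 livers, against 906, 1546, 856, 1689 and 1251 in vehicle livers (3.74 ± 0.20), and the kinase Plk3 rose by 2.67 ± 0.21. Cdkn1a rose by 6.12 ± 0.51 with vehicle liver 1 and by 6.72 without it. Cell death regulators went both ways, 8 of 19 higher and 6 lower. Mcl1, which protects from apoptosis, rose by 1.11 ± 0.18. Bmf, a pro-apoptotic BH3-only protein, had 57.1, 62.7, 49.8, 61.8 and 67.4 normalized counts in CCl4 livers, against 319, 448, 260.3, 344 and 804 in vehicle livers (-2.73 ± 0.25), and caspase 9 (Casp9) fell by 1.20 on the log2 scale.

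NRF2 targets were uneven, with 17 of 33 members higher, 4 lower and a median of 0.40. Gclc, the catalytic subunit of glutamate-cysteine ligase, had 37200, 50131, 37682, 43870 and 32011 normalized counts in CCl4 livers, against 2605, 3989, 4163, 2882 and 4757 in vehicle livers (3.47 ± 0.18). Its regulatory subunit Gclm had a small difference (0.25 ± 0.09; adjusted p = 0.03) that lost its call without CCl4 liver 3 or 5 or vehicle liver 1, 2 or 3 (lowest 0.22, highest 0.29 over the livers left out), at 6144, 6229, 7060, 6061 and 6742 normalized counts in CCl4 livers and 4898, 5363, 5385, 5358 and 6084 in vehicle livers. Hmox1, heme oxygenase 1, had 16704, 25668, 17607, 17970 and 17625 normalized counts in CCl4 livers, against 1729, 1840, 1496, 2294 and 2345 in vehicle livers (3.30 ± 0.15), and Txnrd1, thioredoxin reductase 1, rose by 2.33 ± 0.15. Nqo1, a quinone reductase often used to read NRF2 activity, did not pass the test (0.01 ± 0.17; adjusted p = 0.97). Glutathione transferases on the list fell, Gstm1 at -1.07 ± 0.16 and Gsta4 at -1.22 ± 0.18. Of 21 metallothionein, zinc and iron genes 4 rose and 5 fell, where over all genes 26.3% rose and 23.7% fell.

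**Figure D2:**
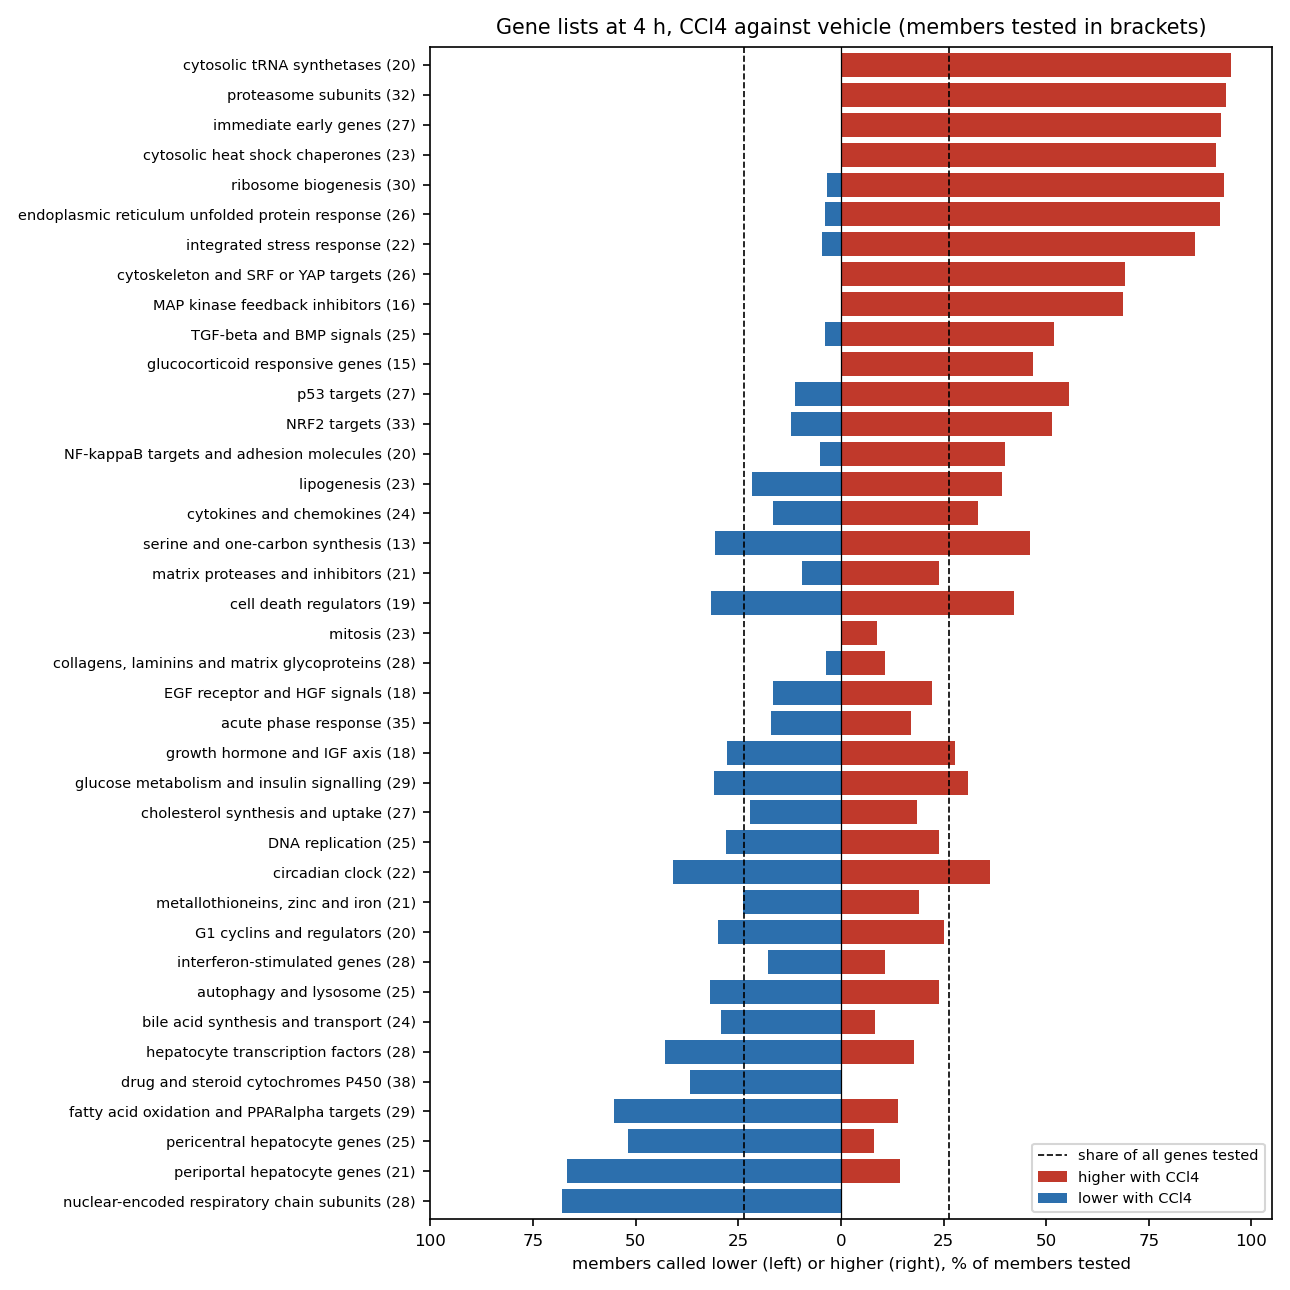
Share of the tested members of each pathway and liver zone list called higher (red, right) or lower (blue, left) in CCl4 livers, in percent, with the number of members tested in brackets. Dashed lines mark the shares over all 13573 genes tested, 26.3% higher and 23.7% lower. The tRNA synthetase, proteasome, immediate early, heat shock, ribosome biogenesis, unfolded protein and integrated stress response lists reach furthest to the right, and the respiratory chain, periportal and fatty acid oxidation lists furthest to the left.

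Genes of the pericentral hepatocyte, the cell that activates CCl4, were lower in 13 of 25 cases and higher in 2 (median -0.68). In whole tissue, fewer cells of a type and less RNA per cell cannot be told apart. Cyp2e1 had 87772, 122667, 107456, 84092 and 118681 normalized counts in CCl4 livers, against 228846, 271695, 246020, 152528 and 228954 in vehicle livers (-1.11 ± 0.19; adjusted p = 0.00041). Lgr5, the R-spondin receptor of the innermost hepatocytes, had 67.8, 99.8, 34.2, 64.8 and 44.0 normalized counts in CCl4 livers, against 356, 286, 334, 228 and 251 in vehicle livers (-2.29 ± 0.26). Tbx3, a WNT-responsive transcription factor of the same zone, had 161, 135, 151, 161 and 300 normalized counts in CCl4 livers, against 1497, 1382, 1076, 946 and 1078 in vehicle livers (-2.75 ± 0.21). Slc1a2, which carries glutamate into these cells, had 1967, 2193, 1552, 1550 and 2599 normalized counts in CCl4 livers, against 8261, 10750, 9120, 5235 and 8873 in vehicle livers (-2.09 ± 0.19). Glul, glutamine synthetase, had 14364, 20781, 15542, 23475 and 11927 normalized counts in CCl4 livers, against 42644, 34549, 34487, 18116 and 17194 in vehicle livers (-0.72 ± 0.27; adjusted p = 0.04). Vehicle livers 4 and 5 were low for Glul and overlapped with the CCl4 livers. The call was lost without any one of CCl4 livers 1, 3 and 5 and vehicle livers 1, 2 and 3 (lowest -0.89, highest -0.56 over the livers left out). Axin2, a WNT feedback inhibitor, did not pass (-0.31 ± 0.20; adjusted p = 0.22).

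Genes of the periportal hepatocyte were lower in 14 of 21 cases and higher in 3, with a median of -0.66. Against vehicle liver 1 alone 1 fell and 0 rose, with a median of -0.32. Ass1, argininosuccinate synthase of the urea cycle, had 88243, 66233, 63152, 51548 and 98512 normalized counts in CCl4 livers, against 89258, 147671, 111387, 212760 and 131602 in vehicle livers (-0.89 ± 0.24; adjusted p = 0.0082), and vehicle liver 1 lay within the range of the CCl4 livers. Drug and steroid P450 genes were lower in 14 of 38 cases and higher in 0, with a median of -0.33. Without vehicle liver 1 the P450 count was 17.

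Of 28 hepatocyte transcription factors 12 fell and 5 rose. Nr1i3 (CAR), the nuclear receptor that induces P450 genes, had 2639, 2744, 2514, 2191 and 4001 normalized counts in CCl4 livers, against 9267, 13611, 8834, 5220 and 8971 in vehicle livers (-1.67 ± 0.22). Ppara, the receptor that drives fatty acid oxidation, had 1085, 1270, 1194, 833 and 1161 normalized counts in CCl4 livers, against 3669, 4989, 4443, 3748 and 6563 in vehicle livers (-2.06 ± 0.16; adjusted p = 8.8e-07), and Prox1 fell by 1.15 on the log2 scale. Hnf4a, the central factor of hepatocyte identity, did not pass the test (-0.01 ± 0.15; adjusted p = 0.97), at 21514, 24007, 31004, 26285 and 34630 normalized counts in CCl4 livers and 23721, 31714, 29516, 29961 and 22560 in vehicle livers. Cebpb, a factor of the acute phase, rose by 1.02 ± 0.20.

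Respiratory chain genes were lower by small amounts. Of 28 nuclear-encoded respiratory chain subunits 19 fell and 0 rose, with a median of -0.45, and none of the falls reached 2-fold. Sdha, the flavoprotein of complex II, had 12937, 13234, 13198, 13791 and 12671 normalized counts in CCl4 livers, against 15451, 19530, 17754, 19067 and 19078 in vehicle livers (-0.46 ± 0.09). Without vehicle liver 1 the count was 24, and against vehicle liver 1 alone it was 0, with a median of -0.22. The 11 mitochondrially encoded genes gave no call (3 fell without vehicle liver 1), and their share of reads was 4.41 to 5.49% in CCl4 livers and 3.90 to 8.62% in vehicle livers. Fatty acid oxidation and PPARalpha targets were lower in 16 of 29 cases and higher in 4 (median -0.40), and 4 of the falls reached 2-fold. Cpt1a, which admits long-chain fatty acids to mitochondria, had 9548, 10457, 12108, 8941 and 12857 normalized counts in CCl4 livers, against 23010, 20657, 21043, 26305 and 29164 in vehicle livers (-1.16 ± 0.13). Pdk4, a PPARalpha target that shuts off pyruvate oxidation, went the other way with 1637, 1266, 796, 2284 and 689 normalized counts in CCl4 livers, against 271, 88.8, 36.03, 122 and 156 in vehicle livers (3.44 ± 0.46).

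Glucose genes were split evenly, 9 of 29 higher and 9 lower. These counts lay not far above the 26.3% higher and 23.7% lower over all genes. Igfbp1, an insulin-repressed secreted IGF-binding protein, had 77788, 83591, 105028, 74060 and 90217 normalized counts in CCl4 livers, against 1872, 2348, 231, 14067 and 6177 in vehicle livers (5.12 ± 0.80). The CCl4 livers were alike and the vehicle livers were widely spread. G6pc, glucose-6-phosphatase, had 6311, 20254, 18511, 8072 and 16172 normalized counts in CCl4 livers, against 3800, 1364, 1076, 2593 and 769.7 in vehicle livers (2.95 ± 0.43). Slc2a1, the GLUT1 glucose carrier, had 2149, 2812, 1833, 1910 and 1728 normalized counts in CCl4 livers, against 289, 198, 178, 225 and 286 in vehicle livers (3.15 ± 0.17). Pfkfb3, an activator of glycolysis, rose by 2.76 ± 0.26, and Gys2, liver glycogen synthase, fell by 1.44 on the log2 scale.

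Lipid synthesis lists had no common direction. Over all genes 26.3% were higher and 23.7% lower, and the falls in each list of this paragraph lay near that share. Cholesterol genes were higher in 5 of 27 cases and lower in 6, or in 3 without CCl4 liver 3. Insig1, which holds the sterol sensor back, had 15623, 12832, 7595, 12723 and 6573 normalized counts in CCl4 livers, against 3713, 5612, 5074, 2953 and 5437 in vehicle livers (1.25 ± 0.25). Lipogenesis genes were higher in 9 of 23 cases and lower in 5, or in 3 without vehicle liver 3. Lpin2, a phosphatidate phosphatase, rose by 1.57 ± 0.15, and Cidec, a lipid droplet protein, had 1026, 1350, 1185, 1052 and 1105 normalized counts in CCl4 livers, against 127, 38.5, 55.0, 59.5 and 367 in vehicle livers (3.64 ± 0.47). Bile acid genes were lower in 7 of 24 cases and higher in 2, and the uptake carrier Slc10a1 fell by 0.76 on the log2 scale.

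Clock genes moved in both directions, 8 of 22 higher and 9 lower. Arntl (BMAL1), an activator of the clock, had 836, 418, 694, 1043 and 965 normalized counts in CCl4 livers, against 79.1, 35.4, 27.9, 41.8 and 39.6 in vehicle livers (4.13 ± 0.29). Npas2, the partner that can replace CLOCK, rose by 4.35 ± 0.49 and Nfil3, a repressor, by 2.07 ± 0.26. Tef, an output activator, had 986, 1524, 1542, 734 and 1520 normalized counts in CCl4 livers, against 4372, 7701, 6449, 5694 and 8614 in vehicle livers (-2.40 ± 0.23), and Per2 fell by 2.26 on the log2 scale. Per1 did not pass (0.40 ± 0.37; adjusted p = 0.4). The hour of day at which mice were injected or killed is not given in the sources used here, and a difference of hour between the groups was not tested.

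**Figure D3:**
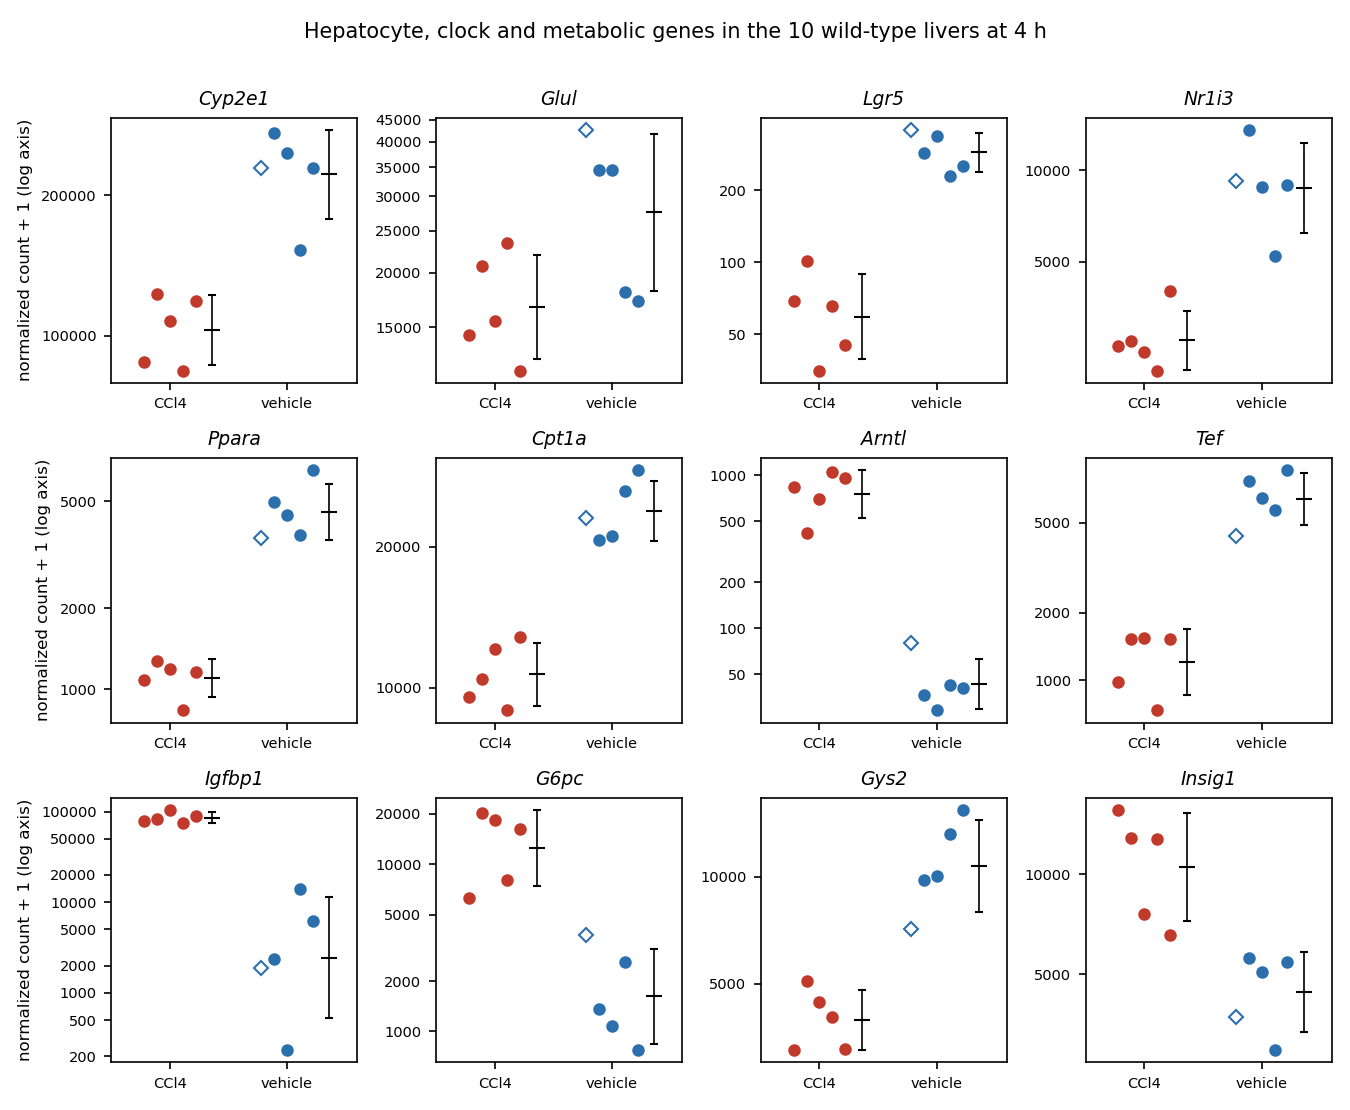
Normalized count + 1 (log axis) of 12 hepatocyte, clock and metabolic genes in each liver, CCl4 livers in red and vehicle livers in blue, with vehicle liver 1 as an open diamond and the bar giving the mean ± SD of the log2 values (n = 5 each). The groups overlap for Glul alone among these 12 genes, and Arntl, Igfbp1, G6pc and Insig1 are the panels in which CCl4 livers are higher.

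Cytokine and chemokine genes were higher in 8 of 24 cases and lower in 4, with a median of 0.23. The other 12 did not pass the test, and over all genes 26.3% were higher and 23.7% lower. Cxcl2, a neutrophil-attracting chemokine, had 329, 719, 302, 1404 and 166 normalized counts in CCl4 livers, against 6.27, 7.86, 9.01, 22.5 and 9.61 in vehicle livers (5.33 ± 0.50), and livers 4 and 2 were the high ones. Cxcl10, an interferon-induced chemokine, had 770.5, 857, 498, 560.4 and 679.7 normalized counts in CCl4 livers, against 134, 103, 132, 154 and 173 in vehicle livers (2.26 ± 0.18). Ccl2, the monocyte chemokine, had 401, 328, 74.7, 368 and 90.8 normalized counts in CCl4 livers, against 45.2, 32.2, 65.8, 59.5 and 51.6 in vehicle livers (2.00 ± 0.46; adjusted p = 0.0027), with livers 3 and 5 close to the vehicle livers. Cxcl12, a homeostatic chemokine, fell by 1.18 on the log2 scale. Among NF-kappaB genes 8 of 20 rose and 1 fell (0 fell without CCl4 liver 2 or 5 or vehicle liver 2), with Relb at 2.49 ± 0.14, Rela at 1.32 ± 0.09, Nfkb1 at 1.65 ± 0.17 and Icam1 at 1.24 ± 0.10. Cd14, the co-receptor for bacterial lipopolysaccharide, had 4564, 4693, 2805, 3915 and 1856 normalized counts in CCl4 livers, against 120.5, 119, 91.0, 162 and 112 in vehicle livers (4.82 ± 0.24), the largest change in the acute phase list.

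Most acute phase genes did not pass the test, with 6 of 35 higher, 6 lower and a median of -0.14. Saa3 had 1129, 363, 618, 548 and 439 normalized counts in CCl4 livers, against 163, 121, 137, 257 and 176 in vehicle livers (1.78 ± 0.28), whereas Saa4, a constitutive serum amyloid, fell by 1.29 on the log2 scale. Interferon-stimulated genes were higher in 3 of 28 cases and lower in 5, and Rsad2 (viperin) had 1486, 1601, 1078, 1261 and 1446 normalized counts in CCl4 livers, against 316, 269.6, 313, 574 and 568 in vehicle livers (1.81 ± 0.21). Marker sums of blood cells overlapped between the groups. Monocyte and recruited macrophage markers summed to 4335 to 9089 normalized counts in CCl4 livers and 4335 to 5278 in vehicle livers (4 of 14 rose), neutrophil markers to 669.7 to 1579 and 381.9 to 1247 (2 of 7 rose), Kupffer cell markers to 12199 to 24339 and 13414 to 19088 (1 of 12 rose), and lymphocyte markers to 611.7 to 1187 and 808.1 to 1268 (1 of 16 fell). Over all genes 26.3% rose and 23.7% fell. The monocyte and neutrophil counts lay near that share of rises, and the Kupffer cell and lymphocyte counts lay below these shares. The part of these cells in the inflammatory rises was not tested. The neutrophil count ran from 0 to 5 with one liver left out (5 without CCl4 liver 3, 4 without vehicle liver 4, 1 without vehicle liver 1, 2 without CCl4 liver 2 and 0 without any of the rest). The Kupffer cell count was 4 without CCl4 liver 3 and 2 without vehicle liver 5, and the lymphocyte count was 2 without CCl4 liver 4, vehicle liver 2 or vehicle liver 4. No analysed marker of these lists was at 0 in all 10 livers, and the neutrophil genes Ly6g, Camp, Ltf and Mpo are not analysed here.

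Growth factor genes included some large rises. Hbegf, a membrane-bound ligand of the EGF receptor, had 1359, 2952, 498, 1017 and 318 normalized counts in CCl4 livers, against 37.6, 18.1, 20.7, 24.1 and 20.4 in vehicle livers (5.23 ± 0.48), and CCl4 liver 2 was the highest and liver 5 the lowest of its group. Btc, betacellulin, another ligand of that receptor, had 1158, 1293, 942, 1445 and 486 normalized counts in CCl4 livers, against 36.4, 18.9, 32.4, 51.4 and 32.4 in vehicle livers (4.89 ± 0.30). Plaur, the urokinase receptor, rose by 3.14 ± 0.29, and Erbb3, a receptor of neuregulins, fell by 1.52 on the log2 scale. Met, the receptor of HGF, did not pass (-0.13 ± 0.18; adjusted p = 0.58). In all, 4 of 18 EGF receptor and HGF genes rose and 3 fell, near the background.

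Of 25 TGF-beta and BMP genes 13 rose and 1 fell (2 without CCl4 liver 5 or vehicle liver 2), with a median of 0.79. Inhba, the activin A subunit, had 1795, 2506, 1202, 2609 and 857 normalized counts in CCl4 livers, against 471, 181, 532, 125 and 215 in vehicle livers (2.65 ± 0.41), and its secreted antagonist Fst, follistatin, rose by 2.32 ± 0.41. Tgif1, a repressor of SMAD targets, had 2926, 3800, 2929, 3549 and 2365 normalized counts in CCl4 livers, against 502, 434, 304, 498 and 411 in vehicle livers (2.86 ± 0.16), and Bmp8b had 151, 248, 118, 205 and 70.2 normalized counts in CCl4 livers, against 0, 3.93, 0.90, 6.43 and 13.2 in vehicle livers (5.20 ± 0.63). Of 21 matrix proteases and inhibitors 5 rose (3 without CCl4 liver 4) and 2 fell (1 without CCl4 liver 3 or 5 or vehicle liver 1). The rises lay near the 26.3% over all genes and the falls below the 23.7%. Adamts1 had 1395, 1723, 988, 1552 and 768 normalized counts in CCl4 livers, against 268, 255, 360.3, 345 and 318 in vehicle livers (2.00 ± 0.20), Mmp13, an interstitial collagenase, rose by 4.45 ± 0.66, and Adamts4 by 1.77 ± 0.46. Of 28 collagens, laminins and matrix glycoproteins 3 rose, Col12a1 (2.57 ± 0.38), Col4a1 (1.02 ± 0.15) and Lamc1 (1.13 ± 0.20), and 1 fell. That fall lost its call without any one of CCl4 livers 1, 3, 4 and 5 and vehicle livers 1, 2 and 5. Both counts of this list lay below the shares over all genes.

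Cell cycle genes went both ways. Ccnd1, cyclin D1, had 1065, 1770, 1217, 1272 and 1384 normalized counts in CCl4 livers, against 9511, 3781, 6653, 2436 and 3715 in vehicle livers (-1.81 ± 0.30). Ccne2, cyclin E2, had 141, 88.9, 96.4, 100.9 and 72.9 normalized counts in CCl4 livers, against 17.6, 25.9, 37.8, 38.6 and 43.2 in vehicle livers (1.62 ± 0.26). Of the 20 G1 genes 5 rose and 6 fell, and of 25 replication genes 6 rose and 7 fell, near the 26.3% higher and 23.7% lower over all genes. Among the replication genes were Rrm2, a ribonucleotide reductase subunit, at 1.69 ± 0.25 and Mcm10, a replication initiation factor, at -1.97 ± 0.29. Mitosis genes gave 2 rises in 23, which became 6 without vehicle liver 1 and 5 without vehicle liver 5; 0 fell, or 1 without vehicle liver 3. Mki67 had 101, 244, 102, 102 and 114 normalized counts in CCl4 livers, against 207, 42.5, 73.0, 59.5 and 214 in vehicle livers, so vehicle livers 1 and 5 lay above 4 of the 5 CCl4 livers.

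Among the other liver cells, 6 of 23 sinusoidal endothelial markers rose (3 without CCl4 liver 2) and 0 fell, a share of rises at that over all genes (26.3%), with sums of 18187 to 27872 in CCl4 livers and 17492 to 22239 in vehicle livers. Thbd, thrombomodulin, had 478, 818, 733, 557 and 612 normalized counts in CCl4 livers, against 384, 269.6, 160.3, 185 and 173 in vehicle livers (1.501 ± 0.23). Stab2, a scavenger receptor, did not pass (0.14 ± 0.17; adjusted p = 0.53). Stellate cell markers rose in 2 of 19 cases, or in 1 without CCl4 liver 4. Of 8 cholangiocyte markers 3 rose, Sox9, Epcam and Spp1, with sums of 1443 to 3073 in CCl4 livers and 964.5 to 1287 in vehicle livers. Sox9 had 854, 1165, 721, 1162 and 260.1 normalized counts in CCl4 livers, against 67.8, 62.9, 41.4, 116 and 84.0 in vehicle livers (3.37 ± 0.38), whereas Krt19, a keratin of bile ducts, did not pass (-0.30 ± 0.31; adjusted p = 0.46). Erythroid genes summed to 2391 to 6558 in CCl4 livers and 4947 to 27181 in vehicle livers, with vehicle liver 5 the highest. Of 5 tested 1 fell, and 4 fell without CCl4 liver 5 or vehicle liver 1, 3 without vehicle liver 2 and 2 without CCl4 liver 2.

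**Figure D4:**
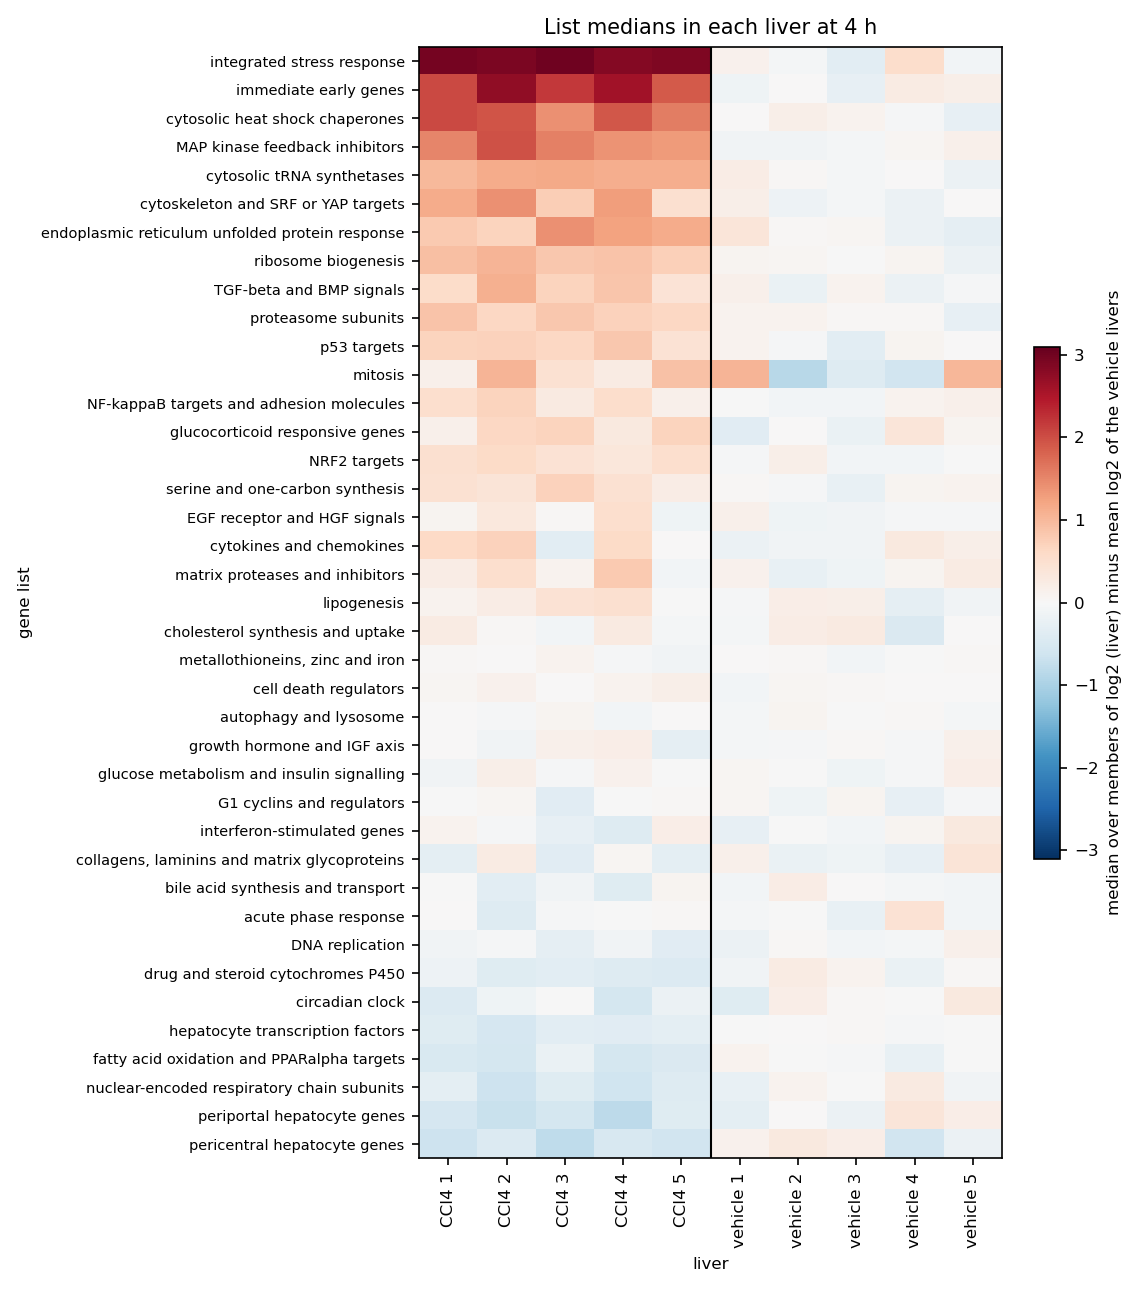
Median over the tested members of each pathway and liver zone list of the log2 value in a liver minus the mean log2 value of the vehicle livers, for CCl4 livers (left) and vehicle livers (right). The integrated stress response, immediate early and heat shock lists are high in each CCl4 liver. The unfolded protein response list is higher in CCl4 livers 3, 4 and 5 than in 1 and 2. The mitosis list is high in vehicle livers 1 and 5 and in CCl4 livers 2 and 5.

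At 12 h, in other wild-type mice, 57.6% of 13643 genes were called, 29.6% higher and 28% lower. Of the genes called at 4 h and tested at 12 h, 4637 were called at both times, 69.0% of the 4 h calls and 60.0% of the 12 h calls, and 427 of them had opposite directions. The CCl4 effect itself differed between the times, as the effect at 4 h minus that at 12 h, in 4646 of 14219 genes (32.7%), 2512 with the higher effect at 4 h (17.7%) and 2134 with the lower (15%). That split depends on scaling. With each library scaled to equal totals 956 were higher and 4855 lower, and the median difference over all genes was -0.385, against 0.059 with the submitters' scaling. The vehicle groups of the 2 times are separate mice, so the 4 group means are given for named genes.

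Some rises were larger at 4 h than at 12 h. Ackr2 averaged 1930 ± 457 normalized counts in CCl4 livers and 64.2 ± 12.8 in vehicle livers at 4 h, and 85.2 ± 23.1 in CCl4 livers and 112 ± 21.4 in vehicle livers at 12 h (SD, n = 5 each). Its CCl4 livers were thus near the vehicle level at 12 h, and the difference between its effects was 5.28 ± 0.29 (SE; adjusted p = 4.1e-10). Tubb2a averaged 11914 ± 1165 and 591 ± 313 in CCl4 and vehicle livers at 4 h, and 5547 ± 2479 and 3537 ± 2275 at 12 h (3.70 ± 0.50; adjusted p = 2.2e-05). Cdkn1a had a difference of 5.58 ± 0.60, with 7035 ± 1442 and 156 ± 201 in CCl4 and vehicle livers at 4 h, and 3846 ± 617 and 2738 ± 879 at 12 h. For Tubb2a and Cdkn1a the vehicle livers were themselves higher at 12 h than at 4 h.

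The effect was larger at 12 h for other genes. Phgdh, the first enzyme of serine synthesis, averaged 36.03 ± 12.7 normalized counts in CCl4 livers and 18.9 ± 27.5 in vehicle livers at 4 h, and 1127 ± 458 and 13.4 ± 15.4 at 12 h (-4.95 ± 0.88; adjusted p = 0.00031). Abcc4, an NRF2-regulated export pump, averaged 162 ± 38.5 and 146 ± 53.6 at 4 h, and 4664 ± 307 and 123 ± 25.5 at 12 h (-5.05 ± 0.29). Gsta1, a glutathione transferase, differed by -5.38 ± 1.01 and Aldh1l2, a mitochondrial folate enzyme, by -4.74 ± 0.62. Glul had the larger fall at 12 h, with an effect of -0.72 ± 0.27 at 4 h and -3.34 ± 0.15 at 12 h, a difference of 2.62 ± 0.33 (adjusted p = 1.1e-05). Arntl averaged 791 ± 247 and 44.8 ± 19.9 in CCl4 and vehicle livers at 4 h, and 569 ± 267 and 909 ± 70.1 at 12 h.

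By list, cholesterol genes and sinusoidal endothelial markers had the higher effect at 4 h in most members. Over all 14219 genes tested 17.7% had the higher effect at 4 h and 15% the lower. Under equal totals 956 of these genes had the higher effect and 4855 the lower, so many lower counts are usual there. Of 27 cholesterol genes tested, 22 had the higher effect at 4 h and 0 the lower, with 0 rises and 24 falls at 12 h alone, and under equal totals the counts were 16 and 0. Sinusoidal endothelial markers had 20 of 23 higher at 4 h and 0 lower (15 and 0 under equal totals). Fatty acid oxidation genes had 20 of 29 higher and 2 lower (12 and 3). Bile acid genes had 14 of 24 higher and 1 lower (9 and 2), and P450 genes 14 of 38 higher and 4 lower (11 and 4). Ribosome biogenesis went the other way, with 0 of 30 higher and 12 lower (0 and 21). The unfolded protein response had 15 of 26 higher and 0 lower (7 and 1), and the heat shock list 12 of 23 higher and 2 lower, where equal totals gave 9 and 6. For the tRNA synthetases (5 higher and 4 lower of 20) and proteasome subunits (5 and 0 of 32) the counts turned to 1 and 9, and 1 and 7, under equal totals, so no direction is given.

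In Adamts12-/- livers at 4 h, 46% of 13567 genes were called for CCl4 against vehicle, 24% higher and 22% lower. Of the genes called in wild type and tested in the knockout, 5064 were called in both, 81.5% of the knockout calls and 75.2% of the wild-type calls, and 4 of them had opposite directions. In the knockout 21 of 23 heat shock genes, 23 of 26 unfolded protein response genes and 20 of 22 integrated stress response genes rose, against 21, 24 and 19 in wild type. Of 28 interferon-stimulated genes 11 rose and 2 fell in the knockout, against 3 and 5 in wild type. Of 28 respiratory chain subunits 27 fell in the knockout, against 19 in wild type. These list counts were not tested against each other. The difference between the effects, knockout minus wild type, was called for 2 of 14094 genes (0.0142%), 1 higher (0.0071%) and 1 lower (0.0071%), by limma on log2 values and for 2 by limma-voom, and 1023 genes (7.26%) had an unadjusted p under 0.05. The median standard error of that difference was 0.24 on the log2 scale. With one liver left out the count of called differences ran from 0 to 4.

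Both called genes were low in some groups. Il1b, the inflammatory cytokine interleukin 1 beta, had in wild type 394, 274, 217, 309 and 226 normalized counts in CCl4 livers, against 69.0, 92.8, 64.9, 114 and 120.1 in vehicle livers, a rise of 1.62 ± 0.22. It averaged 159 ± 76.0 in knockout CCl4 livers and 362 ± 125 in knockout vehicle livers (SD, n = 5 each), an effect of -1.24 ± 0.36. The difference, knockout minus wild type, was -2.87 ± 0.45 (adjusted p = 0.02). Mcm6, a helicase subunit of DNA replication, averaged 555 ± 104 in knockout CCl4 livers and 138 ± 25.9 in knockout vehicle livers. In wild type it had 38.5, 60.8, 21.8, 58.8 and 38.5 normalized counts in CCl4 livers, against 37.6, 64.5, 62.2, 53.02 and 154 in vehicle livers, and the difference was 2.67 ± 0.42 (adjusted p = 0.02). Of 7 neutrophil markers 4 were lower after CCl4 in the knockout, where 22% of all genes were lower. In wild type 2 of 7 were higher, near the 26.3% over all genes, and that count changed with the liver left out. The part of neutrophils in the Il1b difference was not tested.

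**Figure D5:**
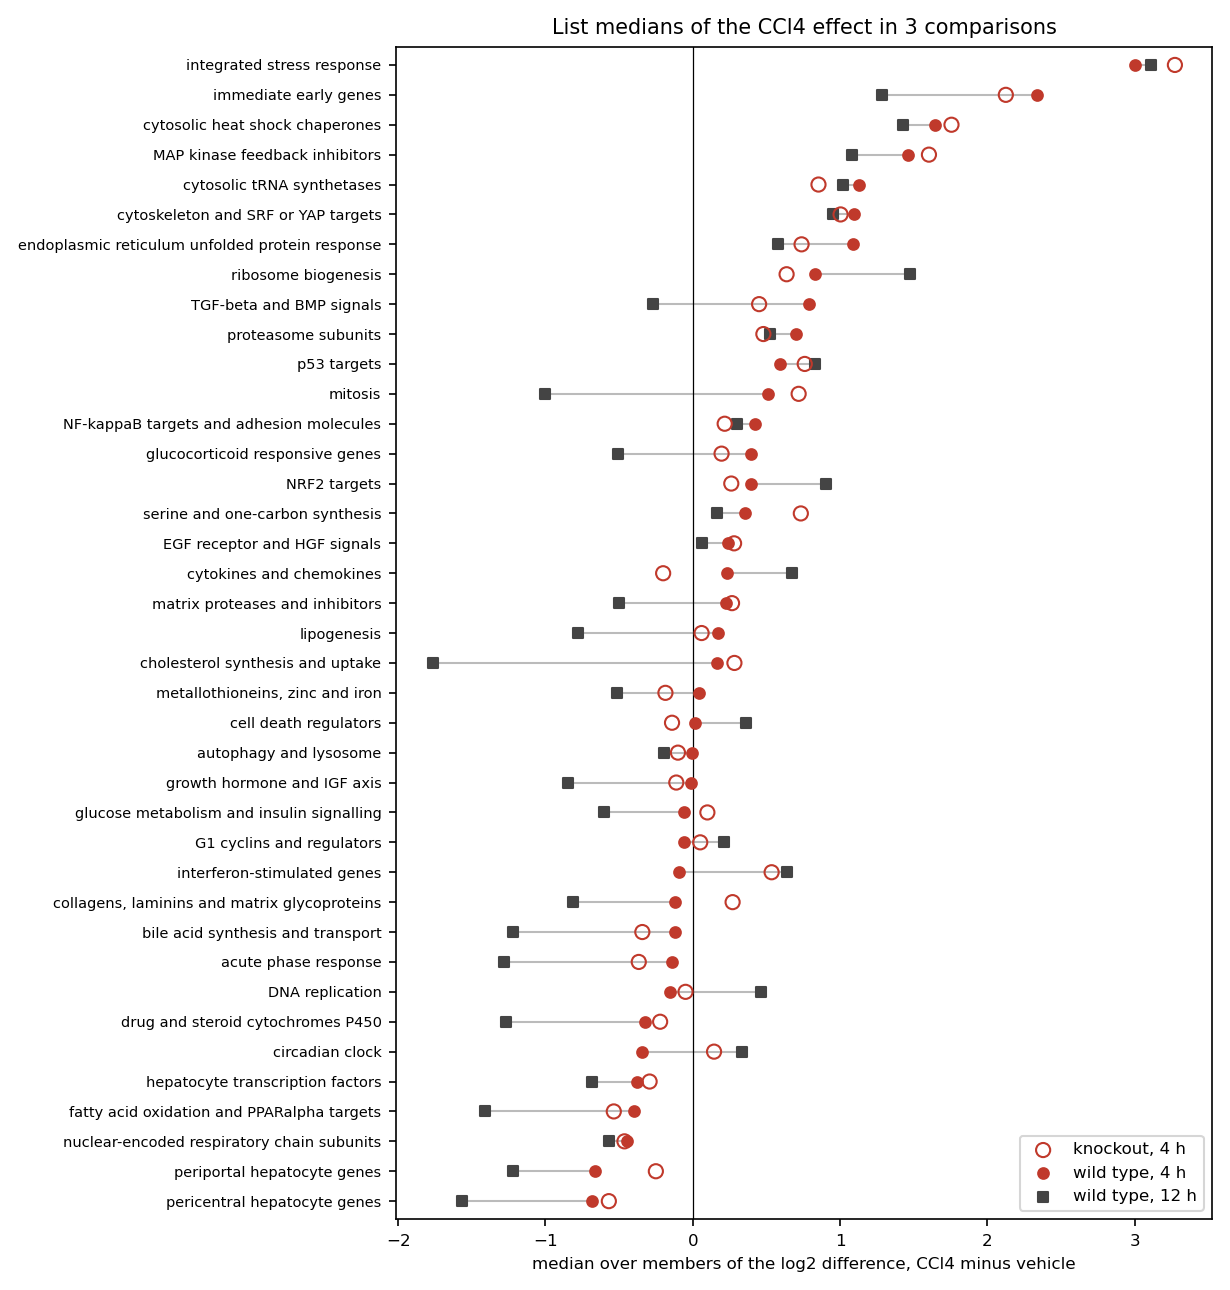
Median over the members of each pathway and liver zone list of the log2 difference between CCl4 and vehicle livers, in knockout livers at 4 h (open circles), wild-type livers at 4 h (filled circles) and wild-type livers at 12 h (squares). At 4 h the genotypes lie close together for most lists, and at 12 h cholesterol genes (-1.76, against 0.17 at 4 h) and mitosis genes (-1.003, against 0.51 at 4 h) lie furthest from the 4 h wild-type value.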

How the data were processed

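Livers of 80 mice were sequenced by the authors, and 10 of them are compared here, with 10 more at 12 h and 10 Adamts12-/- livers at 4 h. Per the labels' protocols, total RNA from TRIzol extraction (500 ng) went into strand-marking mRNA libraries. Per the submitters' processing notes, STAR, HTSeq and DESeq2 were used with GRCm38, versions not given. The deposited table holds a signal for each of 14560 genes, namely read counts divided by a library's size factor, as the values show: multiples of 1 read fit 100% of values to within 0.01 reads. No column was left unmapped.

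Values were tested with limma 3.58.1 (R 4.3.3) on log2(normalized count + 1), trend on, over the groups compared (10 livers, or 20 for a difference of effects), with Benjamini-Hochberg adjustment over all genes tested and a call at an adjusted p under 0.05. A gene was tested when 5 or more libraries of the fit reached 10 normalized counts, and 987 genes were not. Fold changes on this scale understate those of low genes. The test was also run on simulated data with far fewer changed genes than were called here, and its outcome is not given. No count model was used. Precision comes from 5 livers a group and from depth of 23.6 to 51.4 M reads.

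Mice are separate samples by their labels. The labels do not say that equal replicate numbers mark pairs, and no pairing was used. Deviations of same-numbered livers correlated between -0.22 and 0.04 in 5 pairs of the main comparison. Over 30 pairs they ran from -0.25 to 0.26 for the difference between times and from -0.26 to 0.19 for that between genotypes. Such correlations cannot exclude pairing. No 2 libraries held identical values, and the closest pair differed beyond counting noise (chi-square per degree of freedom 27.8).

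The 49 gene lists (1070 genes, 1040 in the table, 1022 tested) and the members were chosen with earlier results of these data known. Named genes were drawn from the 15 largest rises and falls and the 10 rises and 10 falls with the smallest adjusted p. They were also drawn from up to 6 members a list with the smallest adjusted p. Further sources were all called members where 5 or fewer were called, and the 10 largest differences each way. Not all genes of these sets are given, so the genes in the text are not a full list of the extremes. A further 40 of the 159 genes given with values (such as Glul, Gclm, Hnf4a and Nqo1) were chosen after their values were seen. List counts are set beside the shares over all genes, and no test of a list was made. Alternatives were another pseudocount, other filters, quantile normalization, a replicate block, larger fits, leaving out each library, the 6 mice with consecutive numbers alone and, added after seeing the data, limma-voom on recovered reads and scaling to equal totals. Promoters came from RefSeq, of which 10354 tested genes matched. A few genes are not reported here.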

Additional observations from a re-analysis of the deposited data

Results flagged for a closer look

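Among the 159 genes given with values, 318 groups of 5 livers were examined for a liver far from the other 4 on the log2 scale, and 14 stood out by Dixon's criterion, where chance gives about 1 in 20. Vehicle liver 1 was high for Cdkn1a (515.7 normalized counts) and Tubb6 (623.7). Vehicle liver 4 was high for Dusp8 (144.6), Nop58 (1677), Plaur (49.81) and Ppp1r15a (570.4). Vehicle liver 5 was high for Aqp11 (2033) and low for Psmd11 (2083), and vehicle liver 3 was low for Nfil3 (473.8). Among CCl4 livers, liver 2 was high for Hmox1 (25668) and Mki67 (244.4) and low for Xbp1 (10353), liver 4 was low for Trp53inp1 (11221), and liver 5 was high for Tbx3 (300).

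The CCl4 effect differed between 4 h and 12 h in 4646 genes. Of those given with values, the effect at 4 h minus that at 12 h was 5.58 for Cdkn1a, 5.28 for Ackr2, 3.70 for Tubb2a, 2.62 for Glul, -4.74 for Aldh1l2, -4.95 for Phgdh, -5.05 for Abcc4 and -5.38 for Gsta1 on the log2 scale. Between genotypes the effect, knockout minus wild type, differed for Mcm6 (2.67) and Il1b (-2.87).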

How the results depend on the processing

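The count of 6787 called genes became 6790 with a pseudocount of 8, 6881 without a filter, 6307 with a filter of 50 normalized counts, 6785 under quantile normalization, 5790 with all 16 groups in one fit, 6294 with all 40 wild-type livers, 6838 with limma-voom, 6538 under equal totals and 6089 to 6736 with one liver left out. Quantile normalization moved the split to 3000 higher and 3785 lower and equal totals to 3856 and 2682, against 3565 and 3222. It was 2159 with a 2-fold minimum and 2720 with the 6 mice of consecutive numbers alone, where the single vehicle liver is assumed to vary like the CCl4 livers, and 103 of the 6787 genes then had the other sign. In that setting 17 of 32 proteasome, 16 of 30 ribosome biogenesis, 11 of 26 cytoskeleton and 8 of 27 p53 target genes rose, and 7 of 25 pericentral, 5 of 38 P450 and 6 of 28 hepatocyte transcription factor genes fell. Replicate numbers are not said to pair the livers. With the replicate number as a block, 6076 genes were called at 4 h. That block gave 4605 for the difference between times and 0 for the difference between genotypes. The count for the times, 4646, ran from 3972 to 5442 with one liver left out and was 3891 with all 16 groups. For the genotypes the count of 2 ran from 0 to 4 with one liver left out and was 1 under quantile normalization and 1 with all 16 groups. Genes with small differences changed sign: under quantile normalization Dars (-0.17), Hnf4a (0.081), Nqo1 (-0.015) and Stab2 (-0.10), under equal totals Hnf4a (0.056), with limma-voom Nqo1 (-0.017), and with those 6 mice alone Hnf4a (0.19), Klf4 (-1.72), Mcm6 (0.12), Met (0.061), Mki67 (-0.73) and Phgdh (-0.98). With one liver left out Ccn2 ran from -0.22 to 0.33, Dars from -0.020 to 0.14, Fkbp4 from -0.25 to 0.029, Hnf4a from -0.10 to 0.075 and Nqo1 from -0.11 to 0.16. The cause of these changes was not tested. Genes under about 10 normalized counts lie near the limit of depth, where 3 reads equal 1.92 to 4.82 normalized counts.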
